A study of Yarrowia lipolytica with 4 samples.

Results

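The extracellular and acid protease genes of Yarrowia lipolytica were taken from the annotation text. Members were the protein-coding genes whose text named an acid, aspartic, aspartyl, alkaline extracellular, secreted or serine protease, a subtilisin or a candidapepsin. Text on vacuolar, mitochondrial or proteasome proteins was left out, as was 1 further gene, and 46 of 6447 protein-coding genes remained. Polyadenylated RNA had been sequenced from 4 libraries, 2 of each strain. Both strains were made in PO1f, an auxotrophic laboratory strain with KU70, a DNA end-joining gene, disrupted (ku70Δ::tc). The libraries labelled WT had no other change and are called the parent. In the sur2 deletion strain (ku70Δ::tc sur2Δ::LEU2), called the mutant, SUR2, the C4-hydroxylase of sphingoid bases, was replaced by LEU2, a leucine synthesis gene. Cells were harvested from YPD, a rich peptone medium, at an OD600 of 0.8 and 28 °C. No source says whether a strain was 1 clone or whether its libraries came from separate cultures, and the p-values therefore reflect no more than how far these libraries differ, possibly for technical reasons. Differences between the strains include the marker as well as the lost gene.

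Yarrowia lipolytica is known for secreting large amounts of protease. An alkaline serine protease of the subtilisin fold, AEP, encoded by XPR2, prevails at neutral and alkaline pH, and an acid aspartic protease, encoded by AXP1, prevails at acid pH. Both are made as precursors that lose a signal peptide and a pro-region on the way out of the cell. Aspartic proteases cut peptide bonds with a pair of catalytic aspartates, whereas subtilisins use a serine. In Saccharomyces cerevisiae the yapsins are aspartic proteases held at the cell surface by a GPI anchor, and in Candida the secreted aspartic proteases (candidapepsins) digest external protein. PO1f is known to carry mutant alleles of XPR2 and AXP1 and to lack both secreted activities.

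The tables split each strain between them. The transcript table and the gene table each held 1 library of either strain, and a library is named here after both. Totals ran from 8765729 to 16698719 counts, and a count of 0 allowed up to 3 counts, or 0.175 to 0.307 CPM (reads scaled to the TMM-adjusted library total). Such limits cover counting error only. SUR2 (YALI0_E17347g) was at 81.8 and 112 CPM in the parent and had no reads in either mutant library. The libraries of a strain were not copies of each other, since their counts differed beyond counting noise (a chi-square of 144.8 and 292.8 for each degree of freedom), which does not show that they were separate cultures. In bulk RNA, fewer cells expressing a gene and less RNA per cell cannot be told apart.

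By their text the 46 genes fell into 4 classes. There were 19 yapsin-like genes, 14 genes resembling acid proteases or candidapepsins, 11 resembling the alkaline protease and 2 resembling PEP4. PEP4 encodes proteinase A, which in Saccharomyces cerevisiae is a vacuolar enzyme, so for those 2 genes the annotation goes against the label of an extracellular protease, although their text did not mention the vacuole. For 25 of the 46 genes the text claimed only weak or some similarity. In 2 cases it was an entry of Yarrowia lipolytica itself. YALI0_B05654g carried the entry of the acid extracellular protease precursor, and YALI0_A09262g that of the alkaline protease AEP2. YALI0_E33363g, which the selection rule calls AXP1, was annotated only as similar to that protein, and is called the AXP1-like gene here. None of the 46 carried the entry of XPR2 itself, which was not analysed here.

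The genes were dispersed over all 6 chromosomes, from 4 on chromosome F to 12 on chromosome C. Only 2 pairs of members had at most 5 genes between them. YALI0_B22880g and YALI0_B22990g, both resembling the alkaline protease, were separated by 4 genes and 7251 bases, and YALI0_D10835g and YALI0_D10967g, resembling secreted aspartic and acid extracellular proteases, by 5 genes and 14727 bases. No member overlapped another annotated feature. How reads shared between similar members were counted is not known. Annotated spans were 1000 to 1700 bases long in 40 genes, with a median of 1255.5. The AXP1-like gene and YALI0_B05654g were both 1194 bases long, and YALI0_D10967g, a further relative of the acid protease, was 1212. YALI0_C11275g (537 bases) and YALI0_E28006g (612 bases) were the shortest.

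Most of these genes were transcribed at a low level. On the TPM scale, which corrects for length, 63.0% of the members had a mean over the 4 libraries of at least 1, against 90.8% of all protein-coding genes. For a mean TPM of at least 10 the shares were 21.7% and 75.4%, and the median of the means was 1.61 for the family and 31.0 for all protein-coding genes. The PEP4-like gene YALI0_F27071g was the most abundant, at 240 and 245 TPM in the parent and 359 and 981 TPM in the mutant (transcript table first, here and below). Next came the yapsin-like YALI0_E10175g with a mean of 123 TPM, YALI0_D10835g with 100 TPM and the yapsin-like YALI0_E22374g with 55.8 TPM. These 4 genes held 77.6% to 84.1% of the family's summed TPM in each library. The sum was 505.1 and 386.2 TPM in the parent and 878.0 and 1814 TPM in the mutant, so the groups did not overlap. By TPM, 40.6% of all tested genes were likewise higher in the mutant without overlap, and 7.19% were lower. Much of the highest sum came from YALI0_F27071g. The other 42 genes together summed to 113 and 70.9 TPM in the parent and 169 and 288 TPM in the mutant. At the low end YALI0_F19646g, a subtilisin relative, and YALI0_C15532g had reads in the transcript table alone, with at most 3 in a library.

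**Figure D1:**
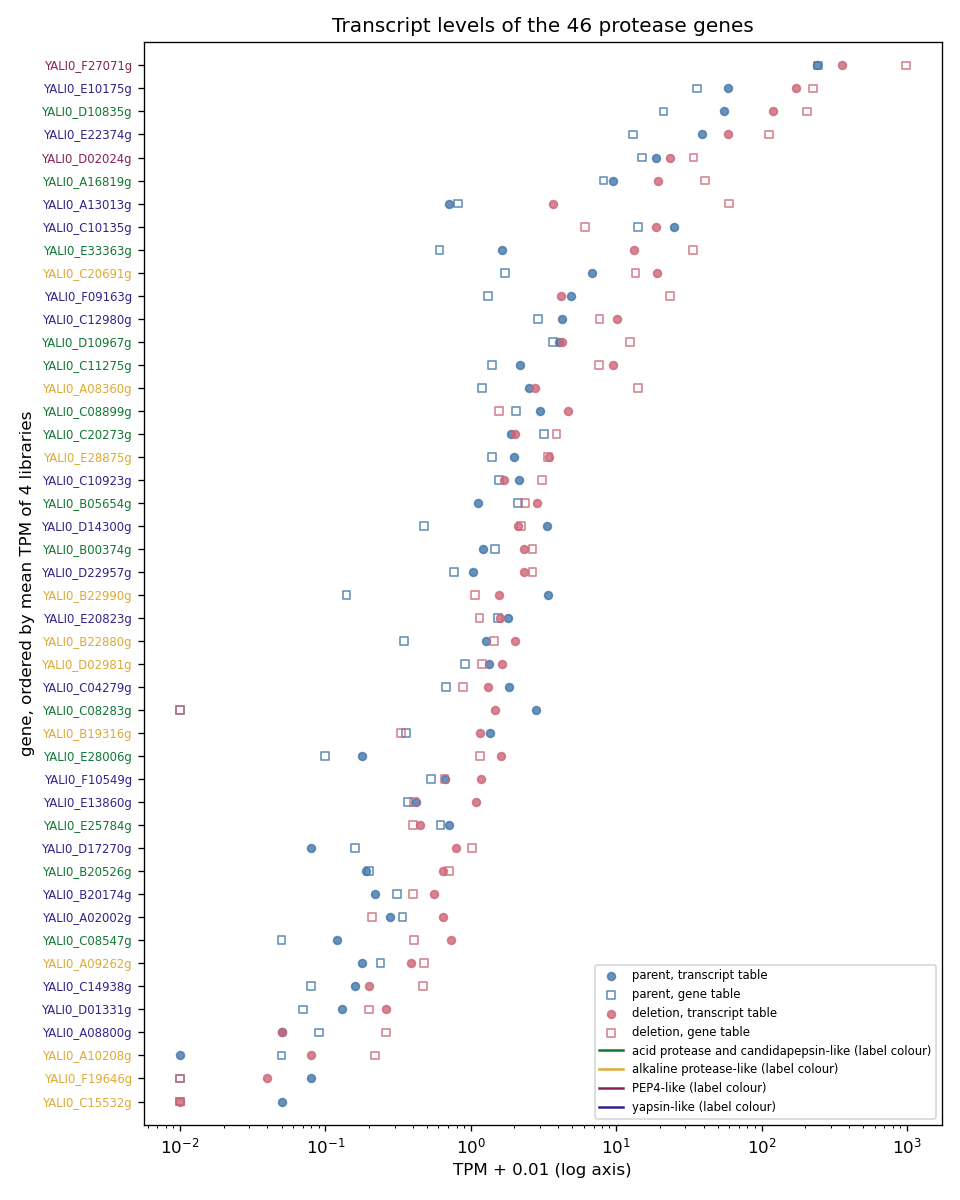
Transcript level (TPM + 0.01, log axis) of each of the 46 genes in each library, ordered by mean TPM. Blue marks the parent and red the mutant (deletion), filled circles the transcript table and open squares the gene table; label colours give the class. YALI0_F27071g lay at 240 to 981 TPM, and 10 of the 46 genes had a mean of at least 10 TPM.

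The comparison of the strains asks which of these transcripts change in level once SUR2 is lost to LEU2. Of the 46 genes, 38 passed the filter on low counts and were tested. The AXP1-like gene rose in the mutant and was the only member that passed 0.05 after adjustment (quasi-likelihood test of edgeR). No member was called lower. Over all 6051 genes tested, 0.992% were called higher and 0.248% lower. At an unadjusted p under 0.05, 11 members were higher and 0 lower, against 8.4% and 4.03% of all tested genes. This count is a description only, since it includes genes that passed the filter through the mutant, where they are higher. Among them are YALI0_E28006g, with 2 and 1 parent reads, and YALI0_D17270g, with 2 and 4. With DESeq2 4 members were higher and 0 lower, where 4.33% and 2.05% of all genes were called. With the deposited table as a term 2 members were called, the AXP1-like gene and YALI0_A13013g (2.4% of all genes), with limma on log2(TPM + 1) 3 (3.33%), on log2(TPM + 0.1) 4 (3.6%) and without the TPM filter 2 (1.63%). Without either parent library 0 members and 0% of all genes were called, with unadjusted p-values under 0.05 for 414 and 361 genes. Without the gene table's mutant library 3 members were called (3.34%), the AXP1-like gene, YALI0_E10175g and YALI0_C20691g.

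Without the transcript table's mutant library 8 members were higher and 2 lower, beside 7.31% and 3.92% of all genes. Those higher were the AXP1-like gene, YALI0_A13013g, YALI0_E10175g, YALI0_D10835g, YALI0_E22374g, YALI0_A16819g, YALI0_F09163g and YALI0_A08360g. Those lower were YALI0_C10135g and YALI0_C08283g. YALI0_C08283g had reads of either strain in the transcript table alone, so its call here says little of the strains. With either mutant library left out the mutant is represented by 1 library, which is assumed to vary like the parent.

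The AXP1-like gene YALI0_E33363g (chromosome E, 3951313 to 3952506, minus strand) had 47 and 16 parent reads and 364 and 447 mutant reads. These corresponded to 2.74 and 1.35 CPM in the parent and to 21.3 and 45.7 CPM in the mutant. Both mutant libraries were several times above both parent libraries, in either table. The change was 16.1-fold, from 2.05 ± 0.982 to 33.5 ± 17.3 CPM (SD, n = 2), with a log2 fold change of 4.01 ± 0.63 (SE; adjusted p = 0.0269, edgeR). Within tables, on log2(CPM + 0.5), the difference was 2.75 by the transcript table and 4.64 by the gene table. The adjusted p was 0.481 once the transcript table's parent library was dropped and 0.549 once the gene table's was, settings in which edgeR called 0 of all genes, while the log2 fold change stayed at 4.58 and 3.61. Without the gene table's mutant library it was 3.35 and passed (adjusted p = 5.34e-05), a p that rests on the spread of the parent alone. On the TPM scale the gene was at 1.63 and 0.60 TPM in the parent and 13.3 and 34.0 TPM in the mutant.

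The other relatives of the acid extracellular protease did not move with it beyond their spread. YALI0_B05654g (chromosome B, 766032 to 767225), which carries the entry of the acid protease itself, was at 1.87 and 4.74 CPM in the parent and 4.56 and 3.17 CPM in the mutant. The groups overlapped, with a log2 fold change of 0.24 ± 0.70 (adjusted p = 0.948, edgeR). The gene had 31 to 78 reads in each library. Whether these come from a mutant allele of PO1f cannot be told from the tables. YALI0_D10967g was at 6.94 and 8.46 CPM in the parent and 6.89 and 17.0 CPM in the mutant. Only the gene table's mutant library stood apart (log2 fold change 0.63 ± 0.59, adjusted p = 0.773, edgeR). Whether the AXP1-like gene differed from these relatives in its response was not tested.

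**Figure D2:**
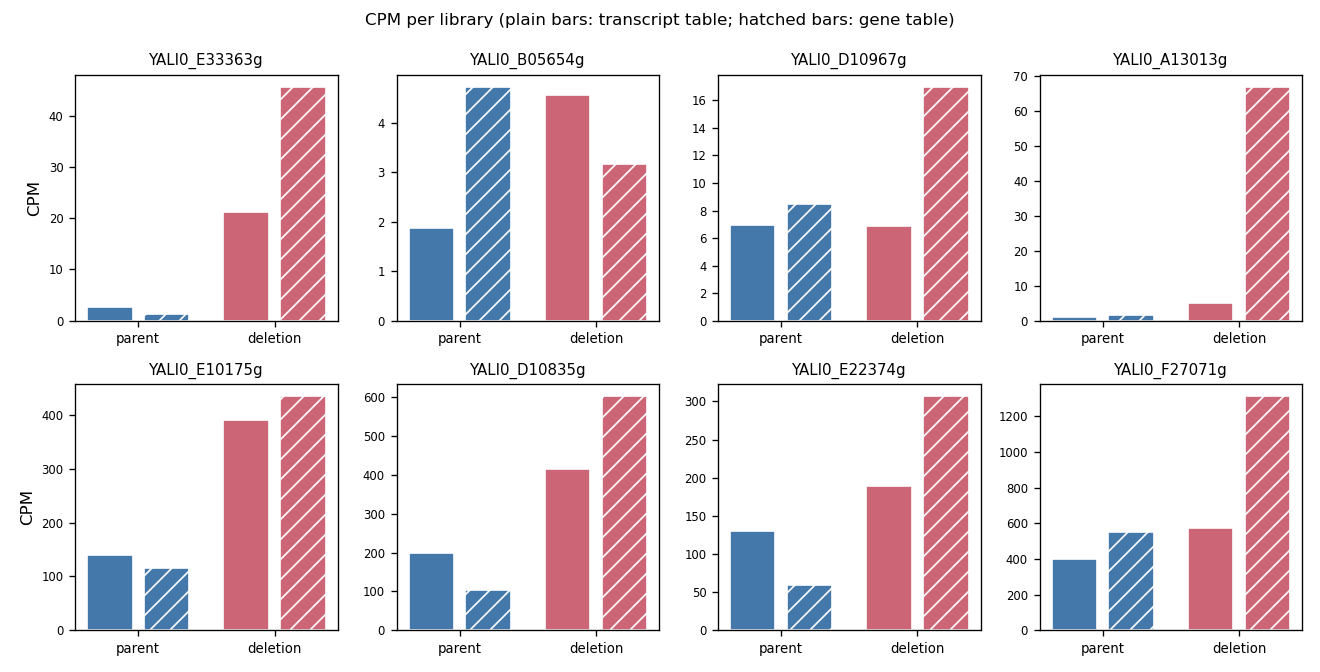
CPM of 8 protease genes in each library; bars are single libraries, blue for the parent and red for the mutant, plain for the transcript table and hatched for the gene table. The AXP1-like YALI0_E33363g was at 2.74 and 1.35 CPM in the parent against 21.3 and 45.7 CPM in the mutant, while the groups of YALI0_B05654g overlapped.

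Among the candidapepsin-like and other secreted aspartic protease genes, several were higher in both mutant libraries without passing edgeR's test. YALI0_D10835g, which resembles a secreted aspartic protease of Aspergillus oryzae, was at 198 and 104 CPM in the parent and at 414 and 602 CPM in the mutant. The groups were well apart, with a log2 fold change of 1.75 ± 0.48 (adjusted p = 0.167, edgeR). It passed with DESeq2 (adjusted p = 0.00389), with limma on TPM (adjusted p = 0.0231) and without the transcript table's mutant library (adjusted p = 0.001), in a range of 0.001 to 0.847 over its 11 alternatives. YALI0_A16819g, resembling candidapepsin 4, was at 18.8 and 21.8 CPM in the parent and 36.7 and 65.0 CPM in the mutant. Its log2 fold change was 1.32 ± 0.42 (adjusted p = 0.232, edgeR).

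The 2 shortest genes of the family lay in this class. YALI0_C11275g, with some similarity to the Candida protease SAP8, was at 1.23 and 1.02 CPM in the parent and 5.08 and 3.27 CPM in the mutant (log2 fold change 1.89 ± 0.68, adjusted p = 0.287, edgeR). YALI0_E28006g had 2 and 1 parent reads and 18 and 6 mutant reads. Its fitted log2 fold change of 2.94 ± 0.97 rests on those few reads (adjusted p = 0.256, edgeR). YALI0_C08547g, another candidapepsin 3 relative, was too low to be tested, with 3 and 1 parent reads and 19 and 5 mutant reads. In each of these 3 genes both mutant libraries lay above both parent libraries, as they did in 22.1% of all tested genes.

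The rest of the class went either way. YALI0_C20273g, like a secreted aspartic protease of Candida tropicalis, was at 3.03 and 6.94 CPM in the parent and 3.10 and 5.01 CPM in the mutant, and the groups overlapped. YALI0_C08899g was at 4.43 and 4.06 CPM against 6.60 and 1.84 CPM, and there the mutant libraries were the highest and the lowest of the 4. YALI0_E25784g was the lowest in fold change of all members tested, at -1.02 ± 0.75 (adjusted p = 0.674, edgeR), with 20 and 16 parent reads and 12 and 5 mutant reads. YALI0_C08283g had 75 parent and 37 mutant reads in the transcript table and 0 of either strain in the gene table. Presence of its reads followed the table and not the strain, so its log2 fold change of -0.97 ± 1.71 says little of the strains. Over the 13 tested genes of this class the median log2 fold change was 0.63. In it 1 gene passed, where 0.992% of all tested genes were called higher. At an unadjusted p under 0.05, 5 were higher and 0 lower, against 8.4% and 4.03% of all tested genes. The 5 include YALI0_E28006g, which passed the filter through the mutant, so this count is a description only.

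The yapsin-like genes held the largest fitted change of the family. YALI0_A13013g (chromosome A, 1337402 to 1338439) had 17 and 18 parent reads and 85 and 656 mutant reads, or 0.992 and 1.52 CPM against 4.96 and 67.1 CPM. Both mutant libraries were above the parent, but the gene table's stood far above the other. A log2 fold change of 4.84 ± 1.14 missed the threshold (adjusted p = 0.109, edgeR). Without the gene table's mutant library it was 1.98 (adjusted p = 0.293), and without that of the transcript table it reached 5.74 and passed (adjusted p = 2.03e-20). It also passed with DESeq2 (adjusted p = 2.24e-06) and with the deposited table as a term (3.95, adjusted p = 0.0351), and the adjusted p over all 11 alternatives ran from 2.03e-20 to 0.825.

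YALI0_E10175g, an abundant member, stood at 139 and 115 CPM in the parent and 391 and 435 CPM in the mutant, a 3.25-fold difference with little spread in either group (127 ± 16.7 and 413 ± 31.2 CPM, SD, n = 2). A log2 fold change of 1.70 ± 0.39 missed the threshold of edgeR's test (adjusted p = 0.101). It passed in 6 of 11 alternatives, DESeq2 among them (adjusted p = 7.23e-04), in a range up to 0.826. YALI0_E22374g was at 130 and 59.1 CPM in the parent and 189 and 307 CPM in the mutant (log2 fold change 1.39 ± 0.48, adjusted p = 0.273, edgeR).

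The remaining yapsin-like genes did not pass either. YALI0_F09163g was at 7.93 and 2.88 CPM in the parent and 6.54 and 30.8 CPM in the mutant. Only the gene table's mutant library was high, and the log2 fold change was 1.77 ± 0.81 with it (adjusted p = 0.439, edgeR) and 0.27 without it. YALI0_C12980g was at 7.82 and 7.19 CPM in the parent and 17.9 and 11.4 CPM in the mutant, and its groups did not overlap (log2 fold change 0.96 ± 0.51, adjusted p = 0.509, edgeR). YALI0_D17270g had 2 and 4 parent reads and 21 and 13 mutant reads (log2 fold change 2.50 ± 0.90, adjusted p = 0.287, edgeR).

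Lower values were seen in a few yapsin-like genes. YALI0_C10135g was at 44.0 and 33.1 CPM in the parent and 31.3 and 8.60 CPM in the mutant, so both mutant libraries lay below the parent. Its log2 fold change was -0.94 ± 0.59 (adjusted p = 0.60, edgeR). With the transcript table's mutant library left out it was -2.17 and passed (adjusted p = 0.00334), and with the gene table's left out -0.30, in a range of 0.00334 to 0.993. YALI0_E20823g was at 3.62 and 4.14 CPM against 3.04 and 1.84 CPM (log2 fold change -0.66 ± 0.64, adjusted p = 0.782, edgeR). YALI0_C10923g was at 3.79 and 3.72 CPM against 2.86 and 4.40 CPM, with overlapping groups. Of 15 tested yapsin-like genes 0 passed, where 0.992% of all tested genes were called higher and 0.248% lower. With shares this small, 0 calls says little of a change. The median log2 fold change was 0.65. At an unadjusted p under 0.05, 4 were higher and 0 lower, against 8.4% and 4.03% of all tested genes. The 4 include YALI0_D17270g, which passed the filter through the mutant, so this count is a description only. With DESeq2 2 of them were higher (4.33% of all genes), and with limma on log2(TPM + 1) 1 was called (3.33%).

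**Figure D3:**
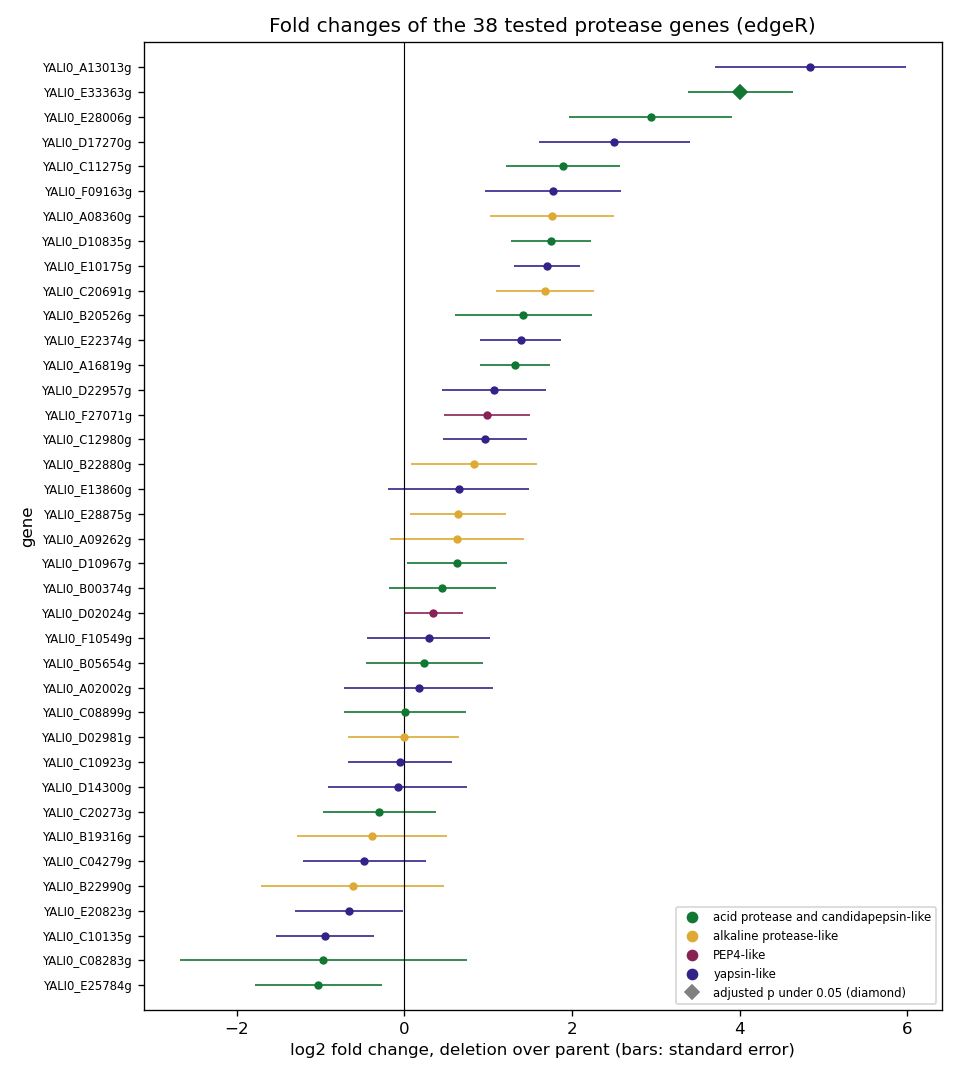
Log2 fold change of the mutant over the parent for the 38 tested genes, with standard errors, from edgeR's fit to the 4 libraries; colours give the class. The diamond marks YALI0_E33363g at 4.01, the only gene past an adjusted p of 0.05; YALI0_A13013g lay higher at 4.84 with a wider error.

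Of the genes resembling the alkaline protease, YALI0_C20691g was the most abundant. It was at 15.3 and 5.24 CPM in the parent and 41.2 and 24.8 CPM in the mutant, and both mutant libraries lay above the parent (log2 fold change 1.68 ± 0.59, adjusted p = 0.276, edgeR). It passed without the gene table's mutant library (log2 fold change 1.99, adjusted p = 0.00772, in a range up to 0.850). Dropping the gene table's parent library gave a log2 fold change of 1.11. YALI0_A08360g was at 5.95 and 3.81 CPM in the parent and 6.31 and 27.0 CPM in the mutant. Its log2 fold change of 1.76 ± 0.74 (adjusted p = 0.373, edgeR) was 0.36 without the gene table's mutant library.

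The members whose text names XPR2, YALI0_E28875g and YALI0_D02981g, were not called. They are not thereby the nearest relatives, since YALI0_C20691g is annotated as similar to the same protein. YALI0_E28875g was at 4.08 and 3.89 CPM in the parent and 6.83 and 5.63 CPM in the mutant (log2 fold change 0.64 ± 0.57, adjusted p = 0.747, edgeR). YALI0_D02981g, described as highly similar to the XPR2 product, was at 2.57 and 2.37 CPM against 3.04 and 1.84 CPM, with overlapping groups. AEP2 (YALI0_A09262g) had 7 to 15 reads in a library. Among the neighbours, YALI0_B22880g was at 2.57 and 0.930 CPM in the parent and 3.91 and 2.35 CPM in the mutant, with overlapping groups. YALI0_B22990g was at 8.17 CPM in the transcript table's parent library and at 0.423 CPM in the gene table's, against 3.56 and 2.05 CPM in the mutant, so the log2 ratio of the strains was -1.09 by the transcript table and 1.46 by the gene table. Of the 8 tested genes of this class 0 passed, where 0.992% of all tested genes were called higher and 0.248% lower. The median log2 fold change was 0.64. At an unadjusted p under 0.05, 2 were higher and 0 lower, against 8.4% and 4.03% of all tested genes. DESeq2 called 0, against 4.33% higher and 2.05% lower of all genes. With shares this small, 0 calls among so few genes says little of a change.

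Both PEP4-like genes were somewhat higher in the mutant, below the threshold. YALI0_F27071g was at 401 and 551 CPM in the parent and 573 and 1314 CPM in the mutant, with the gene table's mutant library apart from the other libraries (log2 fold change 0.99 ± 0.52, adjusted p = 0.509, edgeR). Without that library it was 0.27. YALI0_D02024g was at 53.7 and 57.9 CPM against 63.6 and 78.2 CPM (log2 fold change 0.35 ± 0.35, adjusted p = 0.793, edgeR).

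Across the 38 tested genes, 27 had a log2 fold change above 0, against 52% of all tested genes. The median was 0.64, against 0.03 over all tested genes. A log2 fold change of at least 1 was seen for 14 members and of -1 or less for 1, against 10.6% and 5.4% of all tested genes. A low gene can reach the test through the strain in which it is higher, so these counts are a description only. Fitted without the filter, 32 of all 46 genes were above 0, with a median of 0.63. In that fit 3322 of 6348 protein-coding genes were above 0, with a median of 0.04. Groups did not overlap for 19 tested members with the mutant higher and for 3 with it lower, where 22.1% and 20.2% of all tested genes did so. By TPM the counts were 22 and 1, against 40.6% and 7.19%. The 20 members outside the naming rule had at most 5.37 CPM in any library. The 12 of them that were tested had log2 fold changes of -0.48 to 1.42, and the 8 untested members of the family had at most 19 reads in a library.

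The tables differed in how far apart the strains were for single members. The log2 ratio of the strains was above 0 in both tables for 25 of the 46 genes and below 0 in both for 5, and the remaining 16 had unlike signs or a ratio of 0. Over all protein-coding genes the shares were 29.5% and 26.5%. The median ratio of the family was 0.53 by the transcript table and 0.47 by the gene table, against 0.0 and 0.03 over all protein-coding genes. In the transcript table the AXP1-like gene was the only member with a ratio above 2 on this log2 scale. In the gene table YALI0_A13013g, the AXP1-like gene, YALI0_F09163g, YALI0_A08360g, YALI0_D10835g, YALI0_E22374g and YALI0_C20691g exceeded 2. How many of all genes exceeded 2 in either table was not counted, so these lists describe the members only. The mutant library of the gene table was also the shallowest, with 8765729 counts. The part of table, depth or culture in these differences was not tested.

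**Figure D4:**
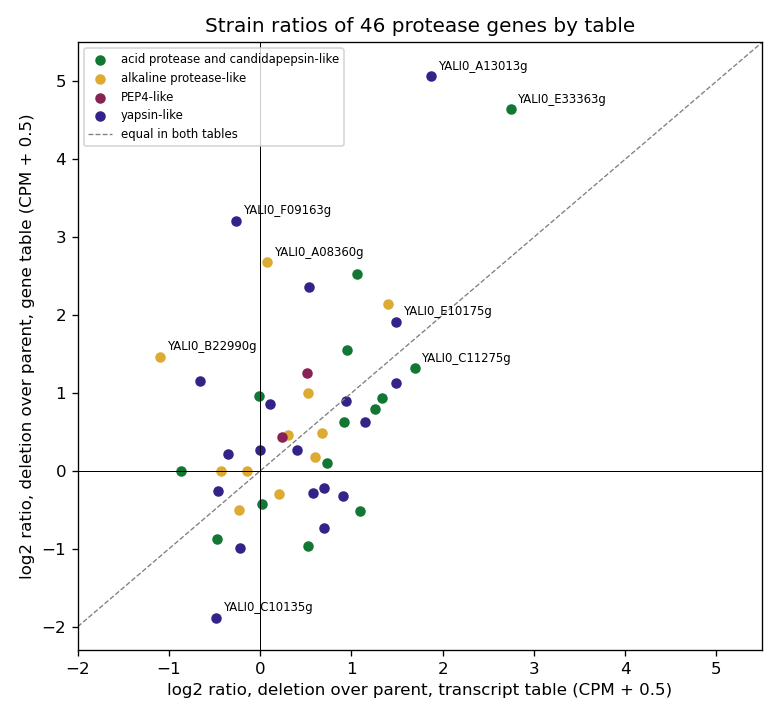
Log2 ratio of mutant (deletion) over parent on CPM + 0.5 within the transcript table (horizontal axis) and within the gene table (vertical axis) for the 46 genes; each point is a gene, coloured by class, and the dashed line marks equal ratios. YALI0_E33363g lay at 2.75 and 4.64 and YALI0_A13013g at 1.87 and 5.06, above the line, while YALI0_F09163g was near 0 in the transcript table and at 3.21 in the gene table.

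Genes that act before or after secreted proteases gave 0 calls in edgeR's test of all 4 libraries. Over all tested genes 0.992% were called higher and 0.248% lower. Of the 6 endoproteases and peptidases of the secretory pathway, which trim precursors, the median log2 fold change was 0.13, and of 11 genes of entry into the endoplasmic reticulum it was -0.06. At an unadjusted p under 0.05 edgeR gave 0 genes in either list, against 8.4% higher and 4.03% lower of all tested genes. DESeq2 called 0, against 4.33% and 2.05%. With shares this small, 0 calls in such short lists says little of a change. The dipeptidyl aminopeptidase-like YALI0_B02838g was at 79.9 and 71.9 CPM in the parent and 85.3 and 173 CPM in the mutant, and the KEX1-like carboxypeptidase YALI0_B05170g, which trims precursors in Saccharomyces cerevisiae, was at 108 and 106 CPM against 200 and 97.9 CPM. TSR1 (YALI0_F04213g) was at 55.9 and 36.0 CPM against 81.5 and 73.4 CPM, and YALI0_D22594g, similar to the SEC61 channel subunit, at 234 and 333 CPM against 192 and 193 CPM. Groups overlapped for YALI0_B05170g and not for the other genes. Of all tested genes, 22.1% were higher in the mutant without overlap and 20.2% lower. The 4 log2 fold changes were 0.77, 0.48, 0.75 and -0.56 in this order, with adjusted p from 0.499 to 0.737 (edgeR). The 7 genes of the RIM pathway, which signals alkaline pH and is known to act on XPR2 transcription, had a median of 0.16. In this list too 0 genes had an unadjusted p under 0.05 and DESeq2 called 0, against the same shares of all genes. RIM101 (YALI0_B13640g), its transcription factor, was at 231 and 161 CPM in the parent and 269 and 489 CPM in the mutant (log2 fold change 0.95 ± 0.45, adjusted p = 0.461, edgeR). The pH-sensing Rim9/PalI gene YALI0_E33627g was at 176 and 76.2 CPM against 83.5 and 56.6 CPM, with overlapping groups (log2 fold change -0.85 ± 0.46, adjusted p = 0.533, edgeR).

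For the 5 nitrogen regulators the median was 0.31, again with 0 at an unadjusted p under 0.05 and 0 by DESeq2. Of all tested genes, 8.4% and 4.03% were higher and lower at that p, and 4.33% and 2.05% by DESeq2. Without the transcript table's mutant library far more of all genes passed. A gene of this list called higher there rests on 1 mutant library and says little of the list. The areA-like YALI0_D20482g was at 2.51 and 1.52 CPM in the parent and 3.10 and 9.82 CPM in the mutant (log2 fold change 1.66 ± 0.76, adjusted p = 0.438, edgeR). YALI0_F01562g, weakly similar to a pathway-specific nitrogen regulator, was at 201 and 72.2 CPM against 87.8 and 109 CPM (log2 fold change -0.47 ± 0.49, adjusted p = 0.801, edgeR).

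Peptide uptake genes, which import the products of proteolysis, included YALI0_F18964g, an OPT2-like oligopeptide transporter. It was at 41.9 and 45.1 CPM in the parent and 103 and 378 CPM in the mutant (log2 fold change 2.47 ± 0.59, adjusted p = 0.118, edgeR), in a range of 5.03e-09 to 0.829 over the alternatives. A further OPT2-like gene, YALI0_A00110g, stood at 9.22 and 43.2 CPM against 11 and 2.46 CPM, with overlapping groups (log2 fold change -1.94 ± 0.88, adjusted p = 0.430, edgeR, in a range of 2.51e-05 to 0.954). Of 16 tested uptake genes 1 was higher and 0 lower at an unadjusted p under 0.05, against 8.4% and 4.03% of all tested genes. DESeq2 called 1 higher and 0 lower, against 4.33% and 2.05%. Without the transcript table's mutant library far more of all genes passed. The few uptake genes called there, in both directions, rest on 1 mutant library and say little of the list.

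The 16 vacuolar proteases and peptidases other than the PEP4-like genes had a median of 1.02, and 15 of them lay above 0, against 52% of all tested genes. At an unadjusted p under 0.05, 4 were higher and 0 lower (8.4% and 4.03% of all tested genes), and DESeq2 called 3 higher and 0 lower (4.33% and 2.05%). Without the transcript table's mutant library edgeR called 10 higher, where 7.31% of all genes were. Their median strain ratio was 0.11 by the transcript table and 1.65 by the gene table. The carboxypeptidase Y-like YALI0_D08052g was at 47.7 and 47.5 CPM in the parent and 84.5 and 287 CPM in the mutant (log2 fold change 1.96 ± 0.56, adjusted p = 0.182, edgeR). The protease B-like YALI0_A06435g was at 2.16 and 1.61 CPM against 4.96 and 15.0 CPM.

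The 33 other proteases and peptidases had a median of -0.24, with 11 above 0. At an unadjusted p under 0.05, 1 was higher and 3 lower (8.4% and 4.03% of all tested genes), and DESeq2 called 0 higher and 3 lower (4.33% and 2.05%). Without the transcript table's mutant library far more of all genes passed. Calls in this list there went in both directions, rest on 1 mutant library and say little of the list. Among them the aminopeptidase-like YALI0_F04290g was at 82.1 and 89.5 CPM in the parent and 37.6 and 34.0 CPM in the mutant (log2 fold change -1.26 ± 0.35, adjusted p = 0.173, edgeR). The glutamate carboxypeptidase-like YALI0_F17842g was at 608 and 899 CPM against 341 and 230 CPM (log2 fold change -1.40 ± 0.45, adjusted p = 0.243, edgeR). Both had groups that did not overlap, as did 20.2% of all tested genes with the mutant lower.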

How the data were processed

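RNA was measured in 4 libraries, made per the labels' protocols with the TruSeq Stranded mRNA kit. Read counts per gene or transcript were deposited as whole numbers, and the authors also deposited TPM values, scaled for gene length and library, as the file headers name them. No aligner, counter, strand setting or genome build is given in the sources used here. Coordinates are those of the deposited tables. The 4 RPKM columns were not used. Each table holds 1 library of either strain and allows no test alone, so counts of both were joined by identifier (8381 features), and 1 feature of the gene table is not used here. Column names give the strain and no replicate number.

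The test was edgeR 4.0.16 (R 4.3.3) with filterByExpr, TMM factors and the two-sided quasi-likelihood test on strain as the only term, adjusted by Benjamini-Hochberg over 6051 genes at 0.05. Standard errors are the log2 fold change over the root of F. DESeq2 1.42.0 and limma 3.58.1 on log2(TPM + 1) were alternatives, and a fold on that scale understates changes of low genes. The methods were tried on counts simulated with the same dispersion for every gene and strain, and with no changes set in low genes. How they perform on the low members was therefore not tested. The members and lists were chosen with earlier results of these data known, and the 4 classes after the annotation was read. Named genes were the AXP1-like gene, members past the threshold, the 20 highest by CPM and the 5 largest changes in each direction, and in each list the 2 of smallest p; others were named after their values were seen.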

Additional observations from a re-analysis of the deposited data

How the results depend on the processing

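Calls moved with the method and depth limits the low members, many of which had under 20 reads in a library. Of 6051 tested genes 75 were called, 386 with DESeq2 and 145 with the table as a term. Of 5886 genes limma called 196 on log2(TPM + 1) and 212 on log2(TPM + 0.1). Leaving out 1 library gave 0 to 685 calls, with 0 when either parent library was absent. Of 38 tested protease genes 1 was called, or 4 with DESeq2 and 2 with the table as a term in place of a replicate block. With limma 3 of 29 were called on log2(TPM + 1), 4 of 29 on log2(TPM + 0.1) and 2 of 46 without its filter. Leaving out 1 library gave 0 to 10. The median log2 fold change of the members was 0.64, 0.58 with the table as a term, 0.73, 1.0 and 0.41 in those limma fits, and 0.49 to 0.98 with 1 library left out. On the TPM scale the median of all genes itself was 0.40, so those values stand relative to it. By TPM 1 member in place of 3 was lower without overlap. The column names carry no replicate number, so the table stood in for the pairing: the differences between tables correlated between strains at r = 0.24 over genes. Against the fit to all 4 libraries no called sign was reversed, and 256 of 279 values of named genes stayed on their side of the threshold. Only 1 of these 26 tested members was called in that fit, so most values stayed by being uncalled. Uncalled values could change sign. The log2 fold change of YALI0_C08283g was -0.97, and 6.86 without the transcript table's parent library. The cause of these differences was not tested.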

Other observations

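The tables hold a further gene tied to XPR2 by its text. YALI0_E26719g is annotated as a YlXPR2:SUC2 protein; SUC2 is the invertase gene of Saccharomyces cerevisiae. It was at 3.62 and 3.64 CPM in the parent and 4.21 and 2.66 CPM in the deletion strain, and the groups overlapped (log2 fold change -0.07 ± 0.62, adjusted p = 0.981, edgeR). It was singled out after its values were seen.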
